A study of Polistes metricus with 16 samples.

Results

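In the brains of 16 adult female Polistes metricus paper wasps, 1 transcript identifier, PmetTSAr2.0-083229, took more counts than any other, and a set of further transcripts varied with it from wasp to wasp. The set described here holds 150 of the 127674 identifiers in the count table. It was chosen from the measured values: log2(CPM + 0.5) of each identifier was correlated over the 16 wasps with that of PmetTSAr2.0-083229, and the 150 with the highest Pearson correlation were taken, that identifier included. CPM is the count of an identifier over the total count of its library, in the usual CPM unit and without further scaling unless stated. Candidates were the 55864 identifiers with 10 or more counts in at least 4 wasps. That the members vary together therefore follows from the choice and is given as a description.

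Each of the 4 groups held 4 wasps, with 1 brain and 1 library per wasp. The first group were workers kept for at least 1 week on a nest of Polistes fuscatus (allospecific), and the second were workers kept for as long on a nest of their own species other than their natal one (conspecific). Both worker groups were trained to P. fuscatus faces. The third group were foundresses trained to those faces, and the fourth were foundresses trained to simple patterns. All wasps were collected at Ann Arbor in 2012, ran 40 trials in a T-maze with negative reinforcement and were killed 30 minutes after the last. The month of collection was July for 7 workers and June for the worker MW21, June for the foundresses trained to faces and May for those trained to patterns. Month and stimulus therefore cannot be told apart in foundresses.

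Foundresses are overwintered females that start nests in spring and lay eggs, while workers are their daughters, which forage and rear brood. Some species of paper wasp recognise others by sight, and the insect brain holds neurons and glia whose transcripts are mixed in a bulk extract. In such an extract fewer cells of a type and less RNA per cell cannot be told apart. The files give no gene for any identifier, so no function can be given to any member and the labelled tissue could not be checked against marker genes. A longer transcript gives more counts at the same number of molecules, and transcript lengths were not used here. Levels are therefore compared mainly between wasps. Where identifiers are ranked or classed by level below, this concerns counts and not molecules.

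Libraries held 14949149 to 22832434 counts. Identifiers with a count numbered 82298 to 99735 per wasp. All 150 members had a count in every wasp except MW41, where 148 did, and 135 members had 10 or more counts in all 16 wasps.

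PmetTSAr2.0-083229 had 6637, 23234, 2671 and 13879 CPM in the allospecific-nest workers MW30, MW32, MW41 and MW47. It had 35343, 6932, 8317 and 20689 CPM in the conspecific-nest workers MW21, MW25, MW40 and MW42. Foundresses trained to faces had 16429, 21033, 12172 and 23384 CPM (M30, M67, M79 and M91), and foundresses trained to patterns had 35972, 31790, 17778 and 29926 CPM (M1, M15, M4 and M5). The lowest and the highest worker were 13.2-fold apart, the lowest and the highest foundress 2.96-fold, and the worker range took in all foundresses but M1. The smallest of these values rests on 43232 counts, so counting error is small beside the spread between wasps.

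The group means of PmetTSAr2.0-083229 were 11605 ± 9035 CPM in allospecific-nest workers, 17820 ± 13218 in conspecific-nest workers, 18255 ± 4979 in foundresses trained to faces and 28867 ± 7813 in foundresses trained to patterns (SD, n = 4 each). Groups next to each other in this order overlapped, with differences of their means smaller than the sum of their SDs. Group means accounted for 36.2% of the variation of its log2 level between wasps, and the remainder lay within groups.

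**Figure D1:**
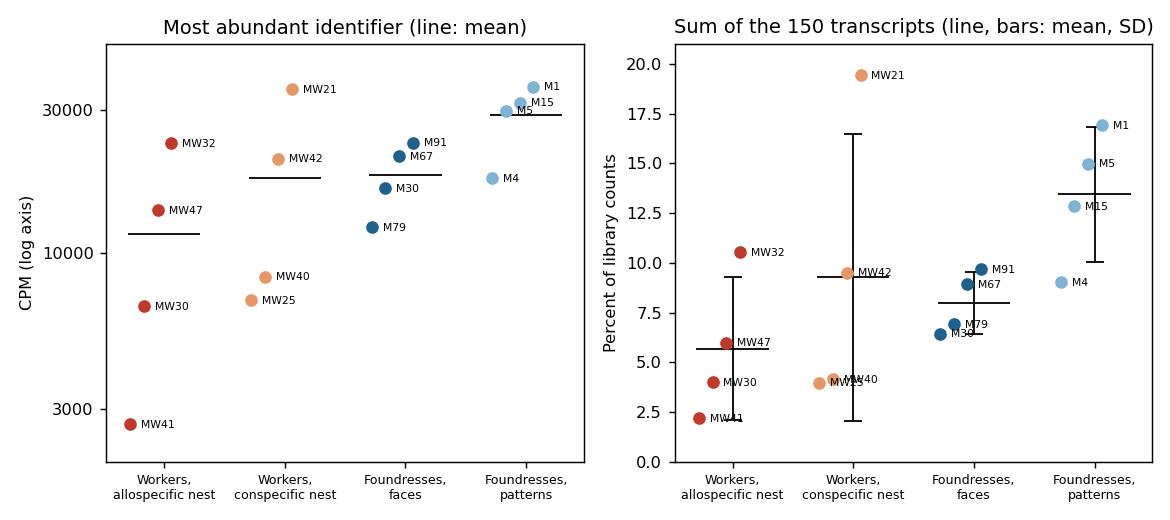
CPM of PmetTSAr2.0-083229 (left, log axis) and percent of library counts held by the 150 members together (right) in each of the 16 wasps, by group. Lines are group means and bars on the right are SD (n = 4). MW41 is lowest in both panels, at 2671 CPM and 2.20%, and MW21 stands at 35343 CPM and 19.4%.

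Together the members held 2.20% to 10.5% of the counts of allospecific-nest workers, 3.98% to 19.4% of those of conspecific-nest workers, 6.44% to 9.69% of those of foundresses trained to faces and 9.02% to 16.9% of those of foundresses trained to patterns. The means were 5.68% ± 3.59, 9.26% ± 7.24, 7.99% ± 1.56 and 13.4% ± 3.38 in the same order (SD, n = 4 each). Every pair of groups overlapped. Between the foundress groups the overlap came from M91 alone, at 9.69% after training to faces, against M4 at 9.02% after training to patterns. By month of collection the share ran from 9.02% to 16.9% in the 4 wasps of May, from 6.44% to 19.4% in the 5 of June and from 2.20% to 10.5% in the 7 of July. The only worker of June, MW21, was also the wasp with the highest share.

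The counts of the set were concentrated in few members. PmetTSAr2.0-083229 alone held 21.1% of them, 5 members held over 50% and 30 held over 90%. Members made up 6 of the 10 identifiers with the highest counts over all 16 wasps, and 24 of the 100 highest. At the other end, 7 members averaged under 1 CPM and 29 between 1 and 10 CPM. The median member averaged 46.9 CPM, against 4.97 CPM over the 55864 candidates. A choice by correlation may favour abundant identifiers, whose levels carry less counting error, and this was not tested.

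The next members by count, PmetTSAr2.0-076066 and PmetTSAr2.0-076065, carry adjacent numbers and had nearly the same counts. PmetTSAr2.0-076066 had 2659, 8526, 1217 and 3278 CPM in the allospecific-nest workers MW30, MW32, MW41 and MW47, and 24431, 2537, 2532 and 7454 CPM in the conspecific-nest workers MW21, MW25, MW40 and MW42. It had 4786, 7727, 6975 and 7968 CPM in foundresses trained to faces (M30, M67, M79 and M91), against 19461, 11970, 9625 and 16237 CPM in those trained to patterns (M1, M15, M4 and M5). Every foundress trained to faces lay below every one trained to patterns for this identifier, and the worker groups overlapped. PmetTSAr2.0-076065 differed from it by at most 1.32% in any wasp. The range of PmetTSAr2.0-076066 over all wasps was 20.1-fold.

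The next 2 members by count behaved alike over a narrower range. PmetTSAr2.0-049909 ran from 1493 CPM in MW41 to 16296 CPM in MW21, a 10.9-fold range. PmetTSAr2.0-055696 ran from 1153 CPM in MW41 to 11826 CPM in MW21, a 10.3-fold range. Both had their lowest and highest values in the same wasps as the pair above.

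Neighbouring numbers recurred throughout the set. Members whose numbers lay at most 3 apart were joined into runs, which gave 89 runs, 25 of them with 2 or more members. These 25 runs held 86 of the 150 members and 74.4% of their counts. Within a run the lowest pairwise correlation of log2(CPM + 0.5) had a median of 0.98 over the 25 runs, and went down to 0.71. In 8 pairs of members of a run, among 172 pairs without a zero, the counts agreed within 5% in every wasp. Adjacent identifiers may be pieces or forms of 1 gene, and the sources used here do not say whether a read that matches several of them was counted for each. The members are therefore uncertain as separate genes, and their summed share may hold some reads more than once.

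With only the most abundant member of each run counted, the set still held 3.27% ± 2.14 of the counts in allospecific-nest workers, 5.33% ± 4.13 in conspecific-nest workers, 4.80% ± 0.934 in foundresses trained to faces and 7.96% ± 2.03 in foundresses trained to patterns (SD, n = 4 each). The order of the groups was that of the full sum.

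The longest run, PmetTSAr2.0-084965 to PmetTSAr2.0-084977, held 13 members with consecutive numbers and means from 15.9 to 299 CPM. All 13 were lowest in MW41 and highest in MW21, and their slopes on PmetTSAr2.0-083229 lay between 0.62 and 0.69. The run of 6 from PmetTSAr2.0-051444 to PmetTSAr2.0-051449 held 14.7% of the counts of the set, with slopes of 0.49 to 0.53. The run of 6 from PmetTSAr2.0-055690 to PmetTSAr2.0-055697 held 14.0%, with slopes of 0.77 to 0.81. Slopes within each of these 3 runs were close to each other, which did not hold in every run. Among the 9 runs of 4 or more members, slopes lay widest apart in that from PmetTSAr2.0-031799 to PmetTSAr2.0-031804. Its 5 members had slopes of 0.54 to 0.88.

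Outside the set, 381 candidates had numbers within 3 of a member. They had a median correlation of -0.11 with PmetTSAr2.0-083229, against -0.25 over all candidates, and 25 of them (6.56%) exceeded 0.8, against 0.386% of all candidates outside the set. The rule had already taken the neighbours with the highest correlations into the set.

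The size of the variation differed widely between members. The slope of a member is the change of its log2(CPM + 0.5) for a change of 1 in that of PmetTSAr2.0-083229. Slopes were below 0.5 in 73 members, from 0.5 to below 0.9 in 56, from 0.9 to 1.1 in 9, the identifier itself among them, and above 1.1 in 12. The 73 members with the smallest slopes held 10.4% of the counts of the set. The median slope was 0.41 in the 7 members averaging under 1 CPM, 0.54 in the 29 from 1 to 10 CPM and 0.41 in the 54 from 10 to 100 CPM. It was 0.63 in the 42 averaging 100 to 1000 CPM and 0.92 in the 18 averaging 1000 CPM or more. The 0.5 CPM added before the logarithm lowers the slopes of members near or below that level. PmetTSAr2.0-007028, for example, ran from 0.114 to 1.09 CPM with a slope of 0.33. Slopes of the rarest members therefore understate how far their CPM varied.

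**Figure D2:**
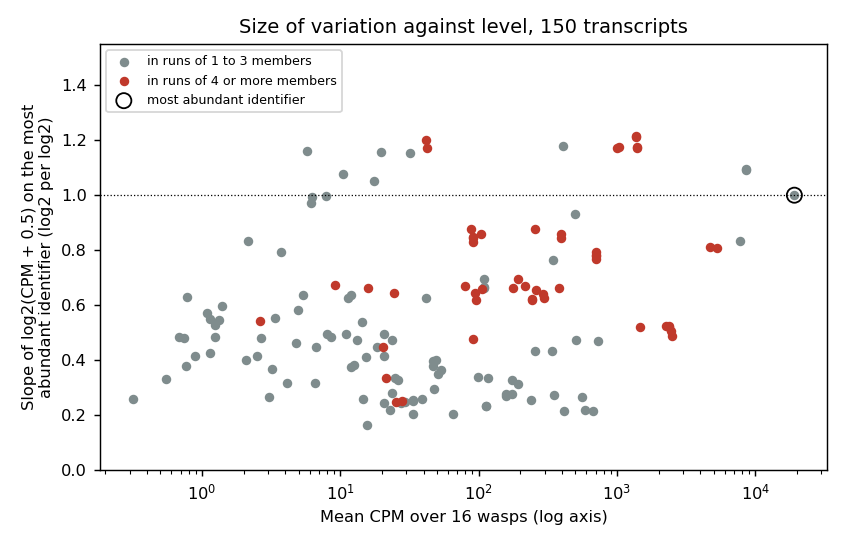
Slope of each of the 150 members on PmetTSAr2.0-083229 (log2 change per log2 change) against its mean CPM over 16 wasps (log axis); red points lie in runs of 4 or more members and the circle marks PmetTSAr2.0-083229. The 13 points of the longest run sit between 0.62 and 0.69, and all slopes run from 0.16 to 1.22.

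The steepest member was PmetTSAr2.0-085715, with a slope of 1.22 and a correlation of 0.977. It had 360, 1920, 142 and 1117 CPM in the allospecific-nest workers MW30, MW32, MW41 and MW47, and 3135, 353, 451 and 1720 CPM in the conspecific-nest workers MW21, MW25, MW40 and MW42. It had 729, 1365, 502 and 1626 CPM in foundresses trained to faces (M30, M67, M79 and M91), against 2933, 2092, 1015 and 2532 CPM in those trained to patterns (M1, M15, M4 and M5). The range over all wasps was 22.0-fold, and the groups overlapped. PmetTSAr2.0-085712, 3 numbers away, followed it closely, with a slope of 1.21 and counts within 2.66% in every wasp.

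The member that correlated best with PmetTSAr2.0-083229, at 0.984, varied much less. PmetTSAr2.0-024858 had 169, 275, 113 and 223 CPM in MW30, MW32, MW41 and MW47 of the allospecific-nest workers, and 339, 169, 180 and 257 CPM in MW21, MW25, MW40 and MW42 of the conspecific-nest workers. It had 248, 269, 230 and 277 CPM in foundresses trained to faces (M30, M67, M79 and M91), against 351, 312, 274 and 379 CPM in those trained to patterns (M1, M15, M4 and M5). Its range was 3.37-fold and its slope 0.43, and M4 alone of the foundresses trained to patterns fell within the range of those trained to faces.

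The shallowest member, PmetTSAr2.0-049177, had a slope of 0.16. Its levels ran from 11.8 CPM in MW41 to 19.0 CPM in M1, a 1.61-fold range, on 191 to 420 counts. Its group means were 14.3 ± 2.38 CPM in allospecific-nest workers, 15.4 ± 2.31 in conspecific-nest workers, 15.4 ± 0.382 in foundresses trained to faces and 17.1 ± 1.83 in foundresses trained to patterns (SD, n = 4 each).

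At the limit of the set stood PmetTSAr2.0-051123, with a correlation of 0.8692, and PmetTSAr2.0-007028, with 0.8673. The first identifiers outside were PmetTSAr2.0-066455, with 0.8667, and PmetTSAr2.0-044991, with 0.8666. The values pass without a gap, so the number of 150 marks no boundary in the data. PmetTSAr2.0-007028 rests on 2 to 25 counts per wasp, and PmetTSAr2.0-051123 on 2110 to 24084.

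Across wasps the members formed a single gradient. The first principal component of their standardised levels held 87.2% of the variance and the second 3.02%, which the choice of members favours. MW41 had the lowest level of 137 members. MW21 had the highest level of 66 members, M1 of 55 and M5 of 18. The correlation with PmetTSAr2.0-083229 had a median of 0.91 over the members and -0.25 over the candidates, of which 27.7% correlated above 0.

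**Figure D3:**
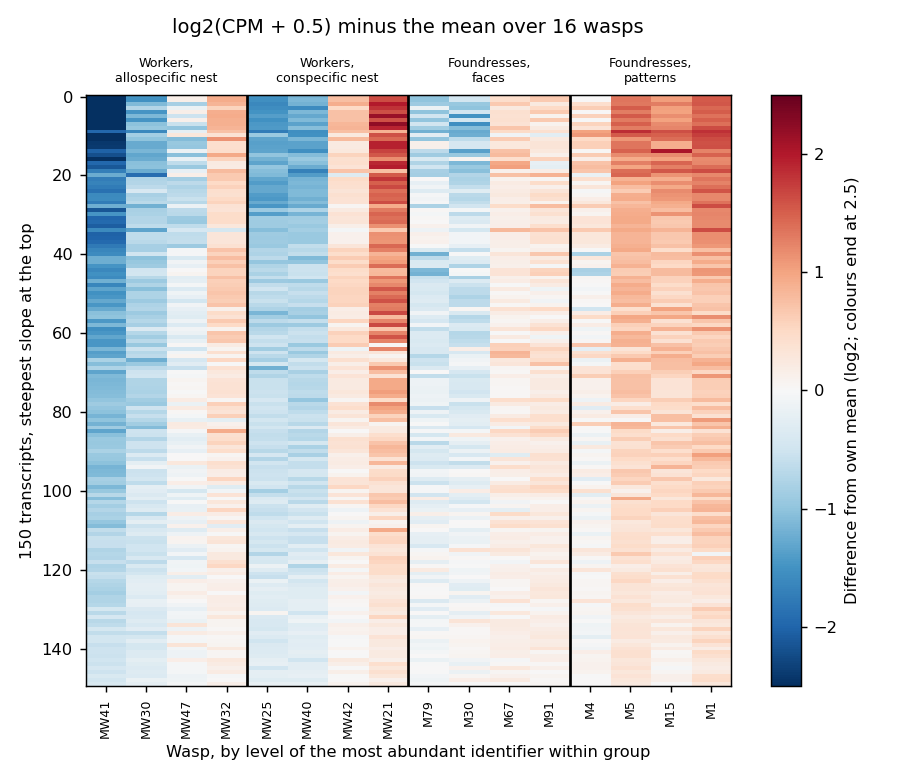
log2(CPM + 0.5) of the 150 members in 16 wasps, as the difference from each member's mean, with the steepest slopes at the top and wasps ordered within each group by PmetTSAr2.0-083229. In both worker groups the mean over members rises from left to right. In foundresses it does not rise throughout. It is lower in M30 (-0.33) than in M79 (-0.28), and lower in M15 (0.59) than in M5 (0.67). MW41 is lowest in 137 members.

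Most of the gradient lay between wasps of the same group. Group means held a median of 32.9% of the variation of a member, against 24.0% over all candidates. The members were chosen to follow PmetTSAr2.0-083229, so a share near that of this identifier, given above, is favoured by the choice. After the group means were taken away, the correlation of members with PmetTSAr2.0-083229 ranged from 0.79 upward, with a median of 0.91. It was above 0.7 in all 150 members among the 8 workers and in 136 among the 8 foundresses. The lowest value among foundresses was 0.35, for PmetTSAr2.0-039128, a member named after its values were seen. The members were chosen for a high correlation over all wasps together, and most of their variation lay within groups. High correlations within groups or within a caste are therefore favoured by the choice and are given as a description.

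Because the rule used all 16 wasps, it was also applied to 1 caste at a time, a step added after the data were seen, and the identifiers chosen there were looked up in the other caste. Of the 150 chosen in the 8 workers, 91 were members. Leaving out PmetTSAr2.0-083229, the other 149 had a median correlation of 0.82 with it in the 8 foundresses, where all 52023 candidates had a median of -0.19. A correlation above 0.5 was found in 130 of the 149, against 9.46% of the candidates. Of the 150 chosen in the 8 foundresses, 40 were members, and in the 8 workers the 149 had a median correlation of 0.74, against -0.37 over 53388 candidates. Here 108 of 149 exceeded 0.5, against 8.77% of the candidates. The points share their library totals within each wasp, neighbouring identifiers are not independent, and no test was made over them. The candidate medians are on unscaled CPM. Over all 16 wasps the candidate median was -0.25 on that scale, against -0.03 on TMM-scaled totals. How far the distance between chosen identifiers and candidates depends on the scale was not tested.

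**Figure D4:**
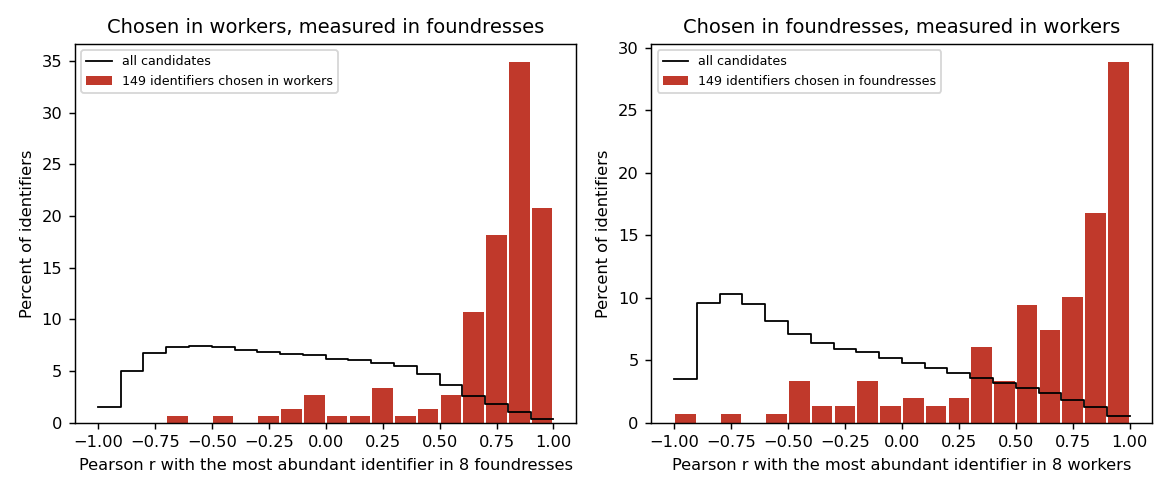
Pearson correlation with PmetTSAr2.0-083229 in the caste that was not used for choosing, for 149 identifiers chosen in 8 workers (left) and in 8 foundresses (right), as red bars in percent, with all candidates as a black line. The chosen identifiers lie mostly to the right, with medians of 0.82 and 0.74, while the candidates have medians of -0.19 and -0.37. All values are on unscaled CPM.

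Other features of the libraries moved with the set, and their part in it was not tested. Over the 16 wasps, log2(CPM + 0.5) of PmetTSAr2.0-083229 correlated with the library total at a Pearson r of 0.44 (Spearman rho 0.25), with the number of identifiers with a count at 0.64 (rho 0.60) and with the TMM scaling factor at -0.81 (rho -0.86). The TMM factor is computed from the same counts, members among them, so it is not a measure separate from the set. By construction the summed CPM of all other identifiers is lower where the set takes a larger share, since CPM sums to the same total in each wasp. On TMM-scaled totals the median correlation over all candidates was -0.03 in place of -0.25, and that of the members was 0.93. With the counts of the members taken out of the totals, 135 of the 150 were chosen again.

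Foundresses trained to faces were set against foundresses trained to patterns to ask whether the set differs with the kind of stimulus learned. All 149 members tested had lower fitted levels after training to faces, against 49.4% of all tested transcripts, with a median log2 difference of -0.60, where the median over all tested transcripts was 0.00. For PmetTSAr2.0-083229, with the values given above, the fitted log2 difference was -0.73 ± 0.65 (SE), and edgeR's quasi-likelihood test gave an adjusted p of 0.711. This error draws on the spread of all 16 wasps. With the 8 foundresses alone in the fit, edgeR gave -0.73 ± 0.28 (SE), an unadjusted p of 0.0226 and an adjusted p of 0.419. On log2(CPM + 0.5) its difference was -0.66. An exact permutation test, two-sided, gave p = 0.0857, or 0.257 adjusted over 3 contrasts, where 0.0286 is the smallest p that 4 against 4 wasps can give.

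By edgeR 0 of 149 members were called at an adjusted p under 0.05, as were 0% of all tested transcripts. DESeq2 and limma-voom also called 0 members, where they called 139 and 0 of the 55226 transcripts tested. At an unadjusted p under 0.05 edgeR had 8 members, all lower, or 5.37%, against 10.3% of all tested in either direction and 5.6% lower. On CPM the groups did not overlap in 26 of 150 members, all lower after training to faces, against 2.13% of candidates in that direction and 6.15% in either. The mean of log2(CPM + 0.5) was lower in 149 of 150, against 41.2% of candidates. That share is on unscaled CPM, while the TMM-scaled fit gave 49.4% of all tested, so the background depends on the measure. Since the members were chosen to vary together, their common direction is not separate evidence. The groups overlapped for PmetTSAr2.0-083229 itself. The summed share was lower by 5.45 percentage points, with -6.92 to -4.29 when any 1 wasp was left out. Month goes with the stimulus here and cannot be told apart from it.

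Workers from allospecific nests were set against workers from conspecific nests to ask whether the set differs with the nest the adult lived on. Of 149 members tested, 148 had lower and 1 higher fitted levels on allospecific nests, where 50.7% of all tested were lower, with a median log2 difference of -0.51 against 0.00 over all tested. PmetTSAr2.0-083229 differed by -0.75 ± 0.65 (SE), with an edgeR adjusted p of 1.0 and a two-sided exact permutation p of 0.486, adjusted p 0.486. With the 8 workers alone in the fit it differed by -0.74 ± 0.87 (SE). No member passed the edgeR test, and 0% of all tested transcripts did. DESeq2 and limma-voom called 0 members, where they called 1 and 0 of the 55226 transcripts tested. At an unadjusted p under 0.05 edgeR had 0 members, against 2.29% of all tested in either direction and 1.44% lower. The groups overlapped in all 150 members. They did not in 1.35% of candidates, with 0.498% of candidates lower on allospecific nests. The mean of log2(CPM + 0.5) was lower in 147 of 150 members, against 36.2% of candidates. That share is on unscaled CPM, while the TMM-scaled fit gave 50.7% of all tested, so the background depends on the measure.

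By the edgeR fit the direction rested largely on MW21. Without it the log2 difference of PmetTSAr2.0-083229 was -0.03 and the median of the members was -0.01. Without MW32 the difference of PmetTSAr2.0-083229 was -1.36, and without MW41 it was -0.40. Means of log2(CPM + 0.5) were not compared with MW21 left out. The difference in the summed share was -0.195 percentage points without MW21, against -3.58 with it.

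Both worker groups together were set against foundresses trained to faces, which differ from them in caste and in the stay on a nest not their own. Month differs too, since every worker but MW21 came from July and these foundresses from June, so caste and month cannot be told apart. The members showed no common direction by the fit, with 93 lower and 56 higher in workers, against 48.2% of all tested that were lower, and a median log2 difference of -0.07, where all tested had 0.01. PmetTSAr2.0-083229 differed by -0.30 ± 0.56 (SE), with an edgeR adjusted p of 0.822 and a two-sided exact permutation p of 0.311, adjusted p 0.467. Its difference was -0.68 without MW21, -0.65 without MW32, -0.14 without MW41 and -0.67 by limma-voom. On means of log2(CPM + 0.5), which weight low wasps more than the fit does, 132 of 150 members were lower in workers, against 46.7% of candidates, with a median of -0.21. No member was called by edgeR, against 3.73% of all tested transcripts in either direction and 1.5% lower. DESeq2 and limma-voom also called 0 members, where they called 3536 and 1892 of the 55226 transcripts tested. At an unadjusted p under 0.05 edgeR had 5 members, all lower, or 3.36%, against 19.9% of all tested in either direction and 8.52% lower.

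Without MW21 the median of the members was -0.33, and edgeR called 1 member lower in workers, PmetTSAr2.0-072354, where it called 1433 of 56340 transcripts. Leaving out M91, MW25, MW40 or MW41 turned the median above 0, to at most 0.03. The groups overlapped in all 150 members, while 2.89% of candidates did not overlap, with 1.26% of candidates lower in workers. In the summed share, workers stood at 7.47% ± 5.62 (SD, n = 8) and foundresses trained to faces at 7.99% ± 1.56 (SD, n = 4).

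Among all 4 groups edgeR called 0 members, against 0.978% of all tested transcripts. The limma-voom test also called 0 members, where it called 427 of the 55226 transcripts tested. DESeq2 called 1, PmetTSAr2.0-082756, where it called 2419 of the 55226 transcripts tested. At an unadjusted p under 0.05 edgeR had 22 members, or 14.8%, against 15.5% of all tested. PmetTSAr2.0-072354 and PmetTSAr2.0-082756 are named because they were the only members called under any setting. For faces against patterns the standard error of the difference had a median of 0.46 over the members, where all tested had 0.21. Some members lay below the latter value.

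**Figure D5:**
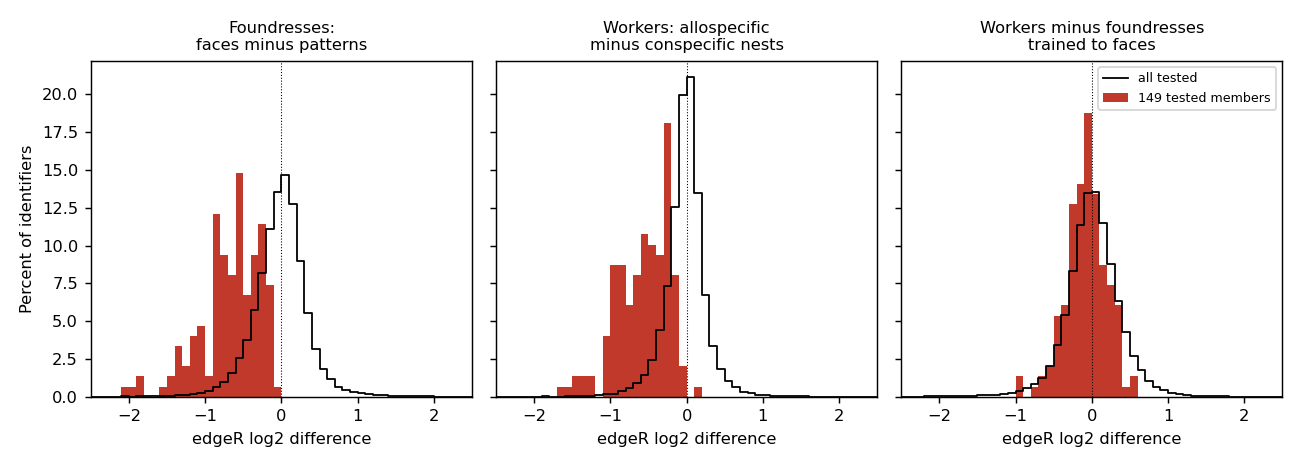
Distribution of edgeR log2 differences for the 149 tested members (red bars) and for all tested transcripts (black line), in percent of each, for faces minus patterns, allospecific minus conspecific nests, and workers minus foundresses trained to faces. The members lie left of 0 in the first and second panels, with medians of -0.60 and -0.51, and around 0 in the third, at -0.07, and none was called in any of them.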

How the data were processed

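RNA of single brains, 1 µg each, went into Illumina TruSeq libraries, per the labels' protocols. Per the submitters' processing notes, Trimmomatic 0.32, Bowtie2 and eXpress were used. For options, strand, transcript set and shared reads, nothing is given in the sources used here. What the authors deposited is a table of counts, as whole numbers, which may be rounded estimates, with 16 columns joined to wasps by the number in both names. No column belonged to another sample.

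The test was edgeR 4.0.16 under R 4.3.3 (quasi-likelihood F test, robust, TMM, all 16 wasps, 1 mean per group, no covariate), with Benjamini-Hochberg adjustment over the 55226 transcripts that passed filterByExpr. Of the 150 members 149 passed; PmetTSAr2.0-009732 did not. DESeq2 1.42.0, limma 3.58.1 voom, other scalings and filters, and each wasp left out were alternatives. The standard error is the log2 difference divided by the square root of F. The edgeR script was tested on simulated data. Each transcript was drawn independently there, so the simulation cannot show how the test behaves for members that vary together. Whether wasps shared a birth nest is not given, and the tests treat each wasp as independent. The main edgeR fit set differences against the spread between all 16 wasps. The permutation tests used only the wasps of the groups compared.

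Named identifiers were PmetTSAr2.0-083229, the next 4 members by count, the 3 best correlated, the steepest and shallowest slopes, and 2 on each side of the limit; others are marked in the text. The members, lists and tests were chosen with earlier results of these data known.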

Additional observations from a re-analysis of the deposited data

Results flagged for a closer look

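Of 48 groups of 4 values examined, covering the named members and the summed share, 1 held a wasp far from the others, where chance marks about 1 in 20. PmetTSAr2.0-051123 stood at 1114 CPM in the conspecific-nest worker MW21, against 145 to 306 CPM in the other 3 wasps of that group.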

How the results depend on the processing

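No paired analysis was possible because each wasp carries its own number and the groups share no replicates. In each of the 3 contrasts, PmetTSAr2.0-083229 kept the sign of its difference and stayed above an adjusted p of 0.05 under all 23 alternatives, with edgeR, DESeq2 or limma adjusted p from 0.419 to 0.974 for faces against patterns, 0.985 to 1.0 for nests and 0.506 to 0.937 for workers against foundresses trained to faces. Members called stayed at 0 except for 1 by DESeq2 among all 4 groups and a range of 0 to 1 with 1 wasp left out for workers against foundresses trained to faces. Calls over all transcripts moved more, from 398 without M30 to 3536 by DESeq2 in that contrast (2060 by edgeR), from 208 without M91 to 2419 by DESeq2 among all groups (540) and up to 139 by DESeq2 for faces against patterns (0). Of the 150 members, 115 to 146 were chosen again with 1 wasp left out (115 without MW41), 107 by Spearman correlation, 101 without MW41 and MW30, 40 in foundresses only and 91 in workers only; with fewer wasps each correlation rests on fewer points. With 1 wasp left out, the difference in summed share between workers and foundresses trained to faces ran from -2.22 percentage points without MW21 to 0.239 without MW41. Depth limits the rarest members, such as PmetTSAr2.0-007028 with 2 to 25 counts per wasp.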
